A study of Homo sapiens with 6 samples.

Results

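The families of cancer-testis antigen genes, named below as members, were found by symbol in the table of read counts: 43 of its 18398 genes carry a name of the MAGE, GAGE, XAGE, PAGE, SSX, CT45, CTAG, CSAG, PRAME, SPANX or BAGE families or are ACTL8, SAGE1 or LAGE3, with no hyphen in the symbol. Of these, 12 are type I and 5 are type II MAGE genes. Genes of the MAGE family under other symbols, such as TRO and NSMCE3, are not members. Some matches are not cancer-testis antigens in the usual sense: SSX2IP encodes a centrosomal protein named for its binding to an SSX protein, and LAGE3 encodes a subunit of the KEOPS complex, which modifies tRNA. On chromosome X lie 38 members, and the other 5 (ACTL8, BAGE2, MAGEF1, PRAME and SSX2IP) are autosomal.

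Cancer-testis antigens are proteins that are normally made in germ cells of the testis, sometimes also in the placenta, and reappear in many tumors. Most of their genes lie on the X chromosome in families of close copies. In somatic cells their promoters are kept silent by DNA methylation, and loss of that methylation is the best known route to their expression in tumors. The MAGE genes share 1 domain, through which their proteins bind E3 ubiquitin ligases. Type I MAGE genes (MAGEA, MAGEB and MAGEC) follow the cancer-testis pattern, whereas type II MAGE genes (MAGED, MAGEE, MAGEF, MAGEH and MAGEL) are expressed in many normal tissues.

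The libraries came from SUM159, a human cell line of triple-negative breast cancer that looks mesenchymal. The POGK group was 3 libraries of stable cells that overexpress POGK, a KRAB domain protein derived from a pogo transposon, from the lentiviral vector pLVX. The control group was 3 libraries of SUM159 cells with pLVX and no POGK in the label. The comparison asks which genes POGK regulates. Whether the stable cells are 1 clone or a pool, and whether replicates are separate cultures, is not given in the sources used here, so the p-values cover only the spread among these libraries, and that spread may be technical.

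POGK had 26565, 28258 and 23128 counts in POGK cells against 1555, 2423 and 1987 in control cells. The libraries held 27645789 to 33689230 counts. Of 8 markers listed for the line, 6 were in the table of counts, and PGR and CDH1 were not. VIM, CD44, CDH2 and ZEB1, which are mesenchymal genes, were expressed. ERBB2 was expressed too, at 85.6 CPM in POGK cells and 72.9 CPM in control cells. ESR1 was near 0, at 0.123 CPM in POGK cells and 0.207 CPM in control cells. CPM are counts scaled to a common library size, corrected by TMM, a method that centers the bulk of genes on equal levels. The spread differed between the groups: the coefficient of variation was larger in control cells for 28 of the 35 members tested, with a median of 5.58% in POGK cells and 15.1% in control cells.

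Promoters are shown first for the called type I MAGE genes with an entry, for the called PAGE genes, chosen after their values were seen, and for ACTL8. In POGK cells 7 of 9 tested type I MAGE genes were higher and 3 of 4 tested PAGE genes were lower. The shares among all genes tested were 32.7% higher and 33.3% lower. Each line gives the 250 bases before the start of transcription, 5′ to 3′, from RefSeq (GRCh38.p14). An entry was found for 36 of the 43 members. MAGEA1 has no entry. In the MAGE lines, capitals mark GGATGT or, on the other strand, ACATCC, letters picked after the sequences were read. In the PAGE lines, capitals mark the longest run that PAGE2, PAGE2B and PAGE5 share. MAGEA3 and MAGEA6, which lie on opposite strands, have the same 250 bases, so 1 line stands for both.
MAGEC1 (chrX:141903644-141903893, plus strand): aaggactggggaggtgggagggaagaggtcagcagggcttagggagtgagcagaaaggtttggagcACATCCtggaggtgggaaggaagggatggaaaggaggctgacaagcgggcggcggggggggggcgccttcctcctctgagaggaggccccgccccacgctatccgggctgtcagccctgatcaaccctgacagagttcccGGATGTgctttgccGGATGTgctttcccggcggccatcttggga
MAGEC2 (chrX:142205291-142205540, minus strand): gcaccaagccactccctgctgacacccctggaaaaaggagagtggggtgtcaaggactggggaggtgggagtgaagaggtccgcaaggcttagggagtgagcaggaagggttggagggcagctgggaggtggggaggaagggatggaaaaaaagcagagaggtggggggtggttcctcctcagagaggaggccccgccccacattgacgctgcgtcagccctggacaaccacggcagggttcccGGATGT
MAGEA12 (chrX:152733507-152733756, plus strand): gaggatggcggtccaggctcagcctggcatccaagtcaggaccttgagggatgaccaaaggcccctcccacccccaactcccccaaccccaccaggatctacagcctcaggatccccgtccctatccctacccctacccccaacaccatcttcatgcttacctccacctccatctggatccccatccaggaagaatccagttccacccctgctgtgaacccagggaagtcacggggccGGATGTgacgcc
MAGEA4 (chrX:151912224-151912473, plus strand): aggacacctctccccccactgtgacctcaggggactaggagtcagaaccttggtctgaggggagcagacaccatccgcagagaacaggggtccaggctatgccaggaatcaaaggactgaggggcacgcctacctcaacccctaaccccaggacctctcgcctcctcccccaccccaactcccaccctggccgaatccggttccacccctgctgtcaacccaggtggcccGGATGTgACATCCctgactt
MAGEA3 (chrX:152698544-152698793, plus strand): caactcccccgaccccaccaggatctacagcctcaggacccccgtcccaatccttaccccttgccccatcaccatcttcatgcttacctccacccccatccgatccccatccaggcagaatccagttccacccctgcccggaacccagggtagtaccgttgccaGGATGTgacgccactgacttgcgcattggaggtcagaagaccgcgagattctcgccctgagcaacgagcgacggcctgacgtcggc
PAGE5 (chrX:55220096-55220345, plus strand): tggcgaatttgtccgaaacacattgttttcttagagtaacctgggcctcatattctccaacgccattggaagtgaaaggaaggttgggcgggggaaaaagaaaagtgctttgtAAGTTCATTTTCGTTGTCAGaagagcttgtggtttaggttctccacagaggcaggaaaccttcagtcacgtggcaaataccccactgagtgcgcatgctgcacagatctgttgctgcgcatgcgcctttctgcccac
PAGE2 (chrX:55088768-55089017, plus strand): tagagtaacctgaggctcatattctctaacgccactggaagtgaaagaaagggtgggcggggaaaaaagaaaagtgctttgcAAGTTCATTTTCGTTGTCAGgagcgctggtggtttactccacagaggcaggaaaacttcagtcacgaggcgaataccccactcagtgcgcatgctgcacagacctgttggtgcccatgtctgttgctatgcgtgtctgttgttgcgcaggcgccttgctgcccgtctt
PAGE2B (chrX:55074780-55075029, plus strand): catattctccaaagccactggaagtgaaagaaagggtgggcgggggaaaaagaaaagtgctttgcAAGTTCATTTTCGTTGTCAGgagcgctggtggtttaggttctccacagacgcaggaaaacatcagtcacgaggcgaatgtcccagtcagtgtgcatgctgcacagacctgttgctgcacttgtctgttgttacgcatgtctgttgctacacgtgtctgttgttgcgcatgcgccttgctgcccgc
ACTL8 (chr1:17755083-17755332, plus strand): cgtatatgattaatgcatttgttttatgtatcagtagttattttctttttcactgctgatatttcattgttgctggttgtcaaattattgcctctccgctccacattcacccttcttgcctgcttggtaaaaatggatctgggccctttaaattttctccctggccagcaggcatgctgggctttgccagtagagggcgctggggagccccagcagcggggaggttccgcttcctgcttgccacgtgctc

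GGATGT, read on either strand, was in the windows of all 6 type I MAGE genes with an entry that were higher in POGK cells, which are the genes it was picked from, and in 2 of the other 5 type I genes. It was also in 3 of 12 windows of lower members and in 2 of 5 windows of members not called. Members count with 1 start each. Among all 35116 promoter windows in the table, where a gene can have several starts, 8.43% held it. Some of the 6 higher type I windows are related copies, so they are not separate finds. MAGEA3 and MAGEA6 are the same, and aligned parts were 88.7% identical for MAGEA3 and MAGEA12 and 78.8% for MAGEC1 and MAGEC2. GGATGT begins 12 bases before the start in MAGEA12, 6 before it in MAGEC2 and 86 before it in MAGEA3. The MAGEA12 site also lies in the window of CSAG1, a lower member on the opposite strand, so that site is counted for both genes. CGGAAG, a core for ETS factors that contains a CpG, was searched on both strands with 1 start per gene. It was in 6 of the 36 windows and in 16.5% of all windows. It was in 0 of 13 windows of higher members and in 2 of 12 windows of lower members. That count depends on the start used, since 3 of the 5 MAGEA4 windows, which were not the one used, held CGGAAG. The PAGE run of 20 bases was in 3 windows of the whole table, those of PAGE2, PAGE2B and PAGE5, and aligned parts of the PAGE2 and PAGE5 windows were 85.4% identical. The ACTL8 window held neither kind of mark.

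Among the 35 members that passed edgeR's filter on low counts, 14 were higher in POGK cells, 12 were lower and 9 were not called, with calls made at an adjusted p below 0.05. Of all 15889 genes tested, 32.7% were higher and 33.3% lower, 66.0% in all, so the members' counts lie near those of the whole table. The members' median log2 fold change was -0.07, against 0.00 for all genes. The families moved in different directions: 7 of 9 tested type I MAGE genes were higher and none lower, while 3 of 4 tested PAGE genes were lower and none higher. At least 4-fold differences were called for MAGEA1 and ACTL8 on the higher side (1.28% of all genes) and for PAGE2, PAGE2B, PAGE5 and PRAME on the lower side (3.57% of all genes). ACTL8, PAGE2, PAGE2B and PRAME passed the filter only through the group where they were higher, unlike MAGEA1 and PAGE5. The same holds for SPANXN3, a lower member that changed less than 4-fold. At their lower level in both groups, SPANXN3 and those other genes would not have been tested, so their calls are not independent of the filter. For 27 of the 35 members all POGK libraries lay on 1 side of all control libraries, as they did for 73.7% of all genes. In bulk RNA, more expressing cells and more RNA per cell cannot be told apart.

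**Figure D1:**
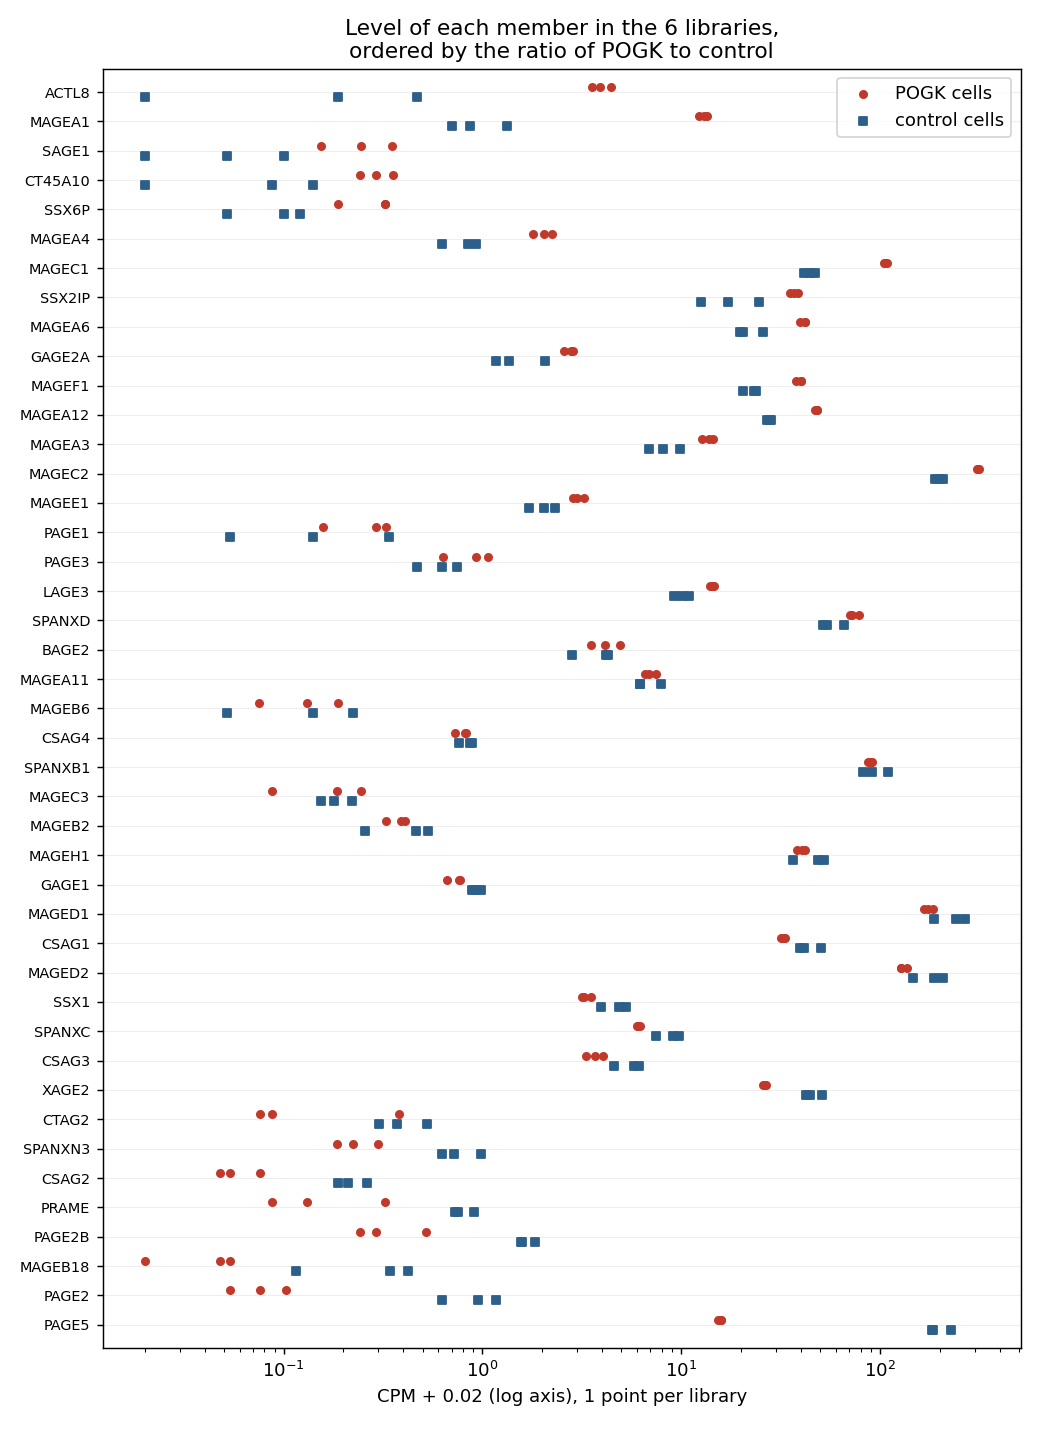
CPM of each of the 43 members in every library on a log axis, after adding 0.02 so that zeros show, with red circles for the 3 POGK libraries and blue squares for the 3 control libraries. Genes run by the ratio of mean POGK to mean control CPM, with 0.02 added to each mean, from the highest at the top (ACTL8, MAGEA1) to the lowest at the bottom (PAGE2, PAGE5), and most groups of 3 points stand clear of each other.

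MAGEA1, an antigen that tumor-reactive T cells recognize (ENSG00000198681; hg38 chromosome X, 153179284 to 153183880, plus strand), had the largest change among type I MAGE genes. It had 13.0, 12.3 and 13.5 CPM in POGK cells against 0.684, 1.31 and 0.842 CPM in control cells, from 466, 445 and 399 counts against 17, 41 and 25. All 3 POGK libraries lay far above every control library. It was 13.4-fold higher (log2 3.75, standard error 0.20, edgeR adjusted p 3.32e-06).

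MAGEC1 and MAGEC2, which lie near each other on Xq and whose promoter windows are printed above, were also higher. MAGEC1, a large antigen known from myeloma, had 105, 108 and 106 CPM in POGK cells against 44.4, 47.0 and 41.4 CPM in control cells, a 2.40-fold difference (log2 1.26, standard error 0.07, edgeR adjusted p 3.92e-06). MAGEC2, a partner of the corepressor TRIM28, had 312, 309 and 314 CPM in POGK cells against 207, 198 and 189.9 CPM in control cells (log2 fold change 0.65, standard error 0.07, edgeR adjusted p 5.17e-05). In both genes the groups were separate. MAGEC3 was too low to test, with 8, 6 and 2 counts in POGK cells and 5, 5 and 4 in control cells.

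The MAGEA3 and MAGEA6 proteins act with TRIM28 as a ubiquitin ligase for the energy sensor AMPK. MAGEA6 had 42.0, 41.9 and 39.7 CPM in POGK cells against 19.8, 25.8 and 20.3 CPM in control cells, or 1.87-fold. MAGEA3 had 13.8, 12.7 and 14.5 CPM in POGK cells against 8.09, 9.89 and 6.84 CPM in control cells, or 1.65-fold. Control replicate 2 was the highest control library for both genes and still lay below all POGK libraries. The copies are nearly identical, so the split of reads between them is uncertain. Their counts added together had a log2 fold change of 0.86 (standard error 0.11, edgeR adjusted p 1.57e-04).

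MAGEA12, of the same cluster on Xq28, had 47.9, 46.9 and 47.9 CPM in POGK cells against 27.0, 28.3 and 28.0 CPM in control cells, a log2 fold change of 0.78 (edgeR adjusted p 2.86e-05). MAGEA4, a target of engineered T cells, had 2.21, 1.77 and 2.02 CPM in POGK cells against 0.604, 0.830 and 0.910 CPM in control cells, or 2.53-fold (edgeR adjusted p 6.13e-04). Neither gene's groups overlapped. MAGEA4 shares 186 bases of exon, 5.52% of its exon length, with the antisense gene MAGEA4-AS1, and reads of the strands may be mixed there because the strand setting is not given. MAGEA11, a coactivator of the androgen receptor, overlapped between the groups at 6.96 ± 0.46 CPM in POGK cells and 6.74 ± 0.99 CPM in control cells (SD, n = 3 each) (edgeR adjusted p 0.797).

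MAGEB genes were low throughout. MAGEB2 had 11, 14 and 11 counts in POGK cells against 11, 16 and 7 in control cells and was not called, with a log2 fold change of -0.16. MAGEB6 had 11 counts over the POGK libraries and 10 over the control libraries and was not tested. MAGEB18 had 1, 0 and 1 counts in POGK cells against 8, 3 and 12 in control cells. It did not pass the filter, and it was lower when the filter was left out (edgeR adjusted p 0.0065, where 29.9% of all genes were lower).

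Type II MAGE genes moved both ways. MAGED2, known from a transient form of Bartter syndrome, had 137, 128 and 127 CPM in POGK cells against 208, 147 and 188 CPM in control cells (log2 fold change -0.47, standard error 0.12, edgeR adjusted p 0.0068). MAGED1, a binding partner of the p75 neurotrophin receptor, had 185, 167 and 174 CPM in POGK cells against 242, 188 and 268 CPM in control cells (log2 fold change -0.41, edgeR adjusted p 0.0158). Control replicate 2 was the lowest control library for both genes and came close to the POGK libraries. The call of MAGED1 was lost with library size alone as scaling (-0.21, edgeR adjusted p 0.157) and without POGK replicate 2, POGK replicate 3 or control replicate 3, at edgeR adjusted p-values of 0.0618, 0.0512 and 0.0674.

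MAGEF1, an autosomal MAGE gene whose protein acts with NSMCE1 in the turnover of an iron-sulfur assembly factor, was higher. It had 40.2, 38.0 and 39.8 CPM in POGK cells against 20.4, 23.8 and 23.3 CPM in control cells, a log2 fold change of 0.80 (edgeR adjusted p 7.11e-05). MAGEE1, a dystrobrevin-associated protein, had 2.85, 2.96 and 3.24 CPM in POGK cells against 1.69, 2.30 and 2.02 CPM in control cells, a log2 fold change of 0.58. Its edgeR adjusted p of 0.0136 became 0.0553 without POGK replicate 3. MAGEH1, another p75 partner, overlapped between the groups at 40.2 ± 1.86 CPM in POGK cells and 45.8 ± 8.40 CPM in control cells (SD, n = 3 each). It was not called (edgeR adjusted p 0.218), but without control replicate 2 it was lower, with a log2 fold change of -0.33 (edgeR adjusted p 0.0036).

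Set side by side, tested type I MAGE genes had a median log2 fold change of 0.78 with a range of -0.16 to 3.75, and 7 of 9 were higher. Type II MAGE genes had a median of -0.19 with a range of -0.47 to 0.80, and 2 of 5 were higher and 2 lower. The shares among all genes tested were 32.7% higher and 33.3% lower. All type I genes lie on chromosome X, where 46.6% of the tested genes that are no members were higher and 23.3% lower. With library size alone as scaling the type II median was 0.01 and the type I median 0.97, on a scale where the median of all genes was 0.19. The summed level of the 12 type I genes was 543 ± 2.97 CPM in POGK cells and 310.1 ± 11.3 CPM in control cells, and that of the 5 type II genes was 389 ± 16.6 CPM in POGK cells and 484 ± 75.3 CPM in control cells (SD, n = 3 each). Without MAGEC2, the type I sum was 231 ± 0.41 CPM in POGK cells and 112 ± 7.32 CPM in control cells. The type II sums overlapped, since control replicate 2 at 397 CPM lay within the POGK range of 374 to 407 CPM. The difference between the types was not tested, because genes are not replicates of a condition.

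**Figure D2:**
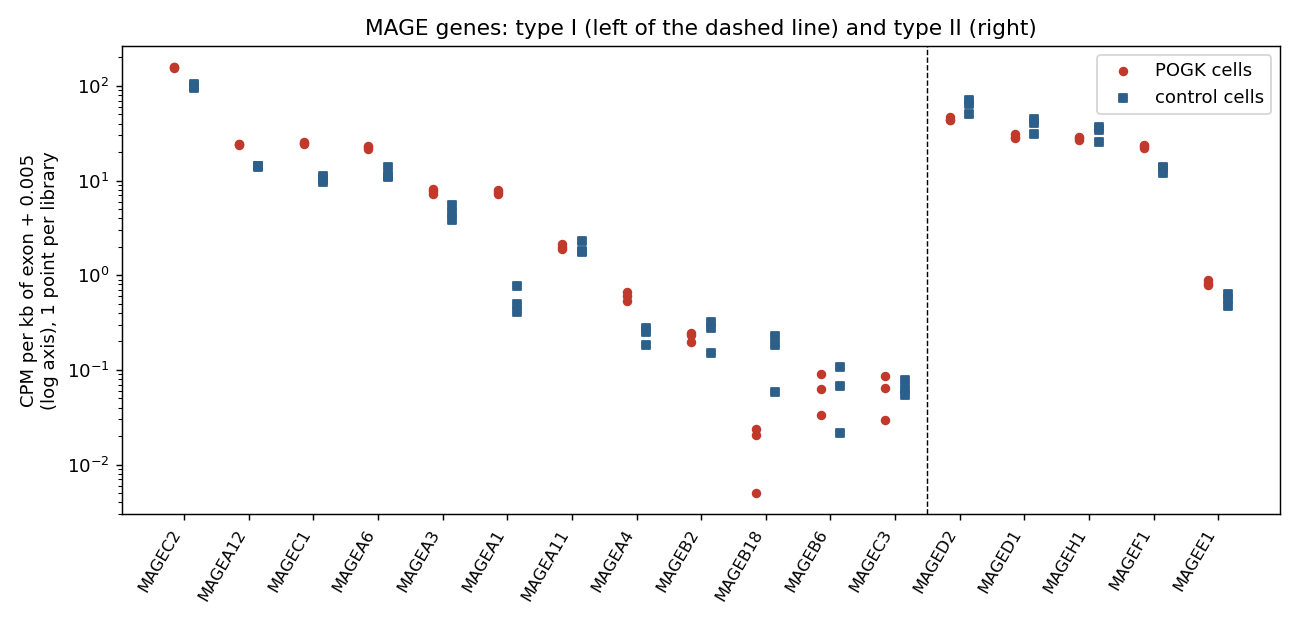
CPM per kilobase of annotated exon, plus 0.005, on a log axis for the 12 type I and 5 type II MAGE genes, with the 3 POGK libraries (red circles) left of the 3 control libraries (blue squares) for each gene. MAGEA1 shows the widest gap, and MAGEC2 is the highest type I gene in both groups.

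**Figure D3:**
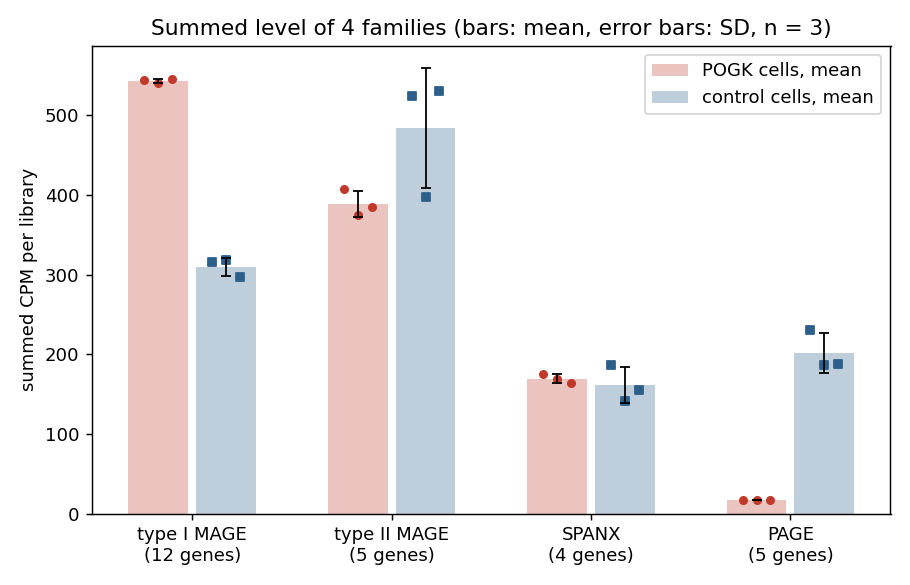
Summed CPM per library of type I MAGE, type II MAGE, SPANX and PAGE genes, with bars for the mean, error bars for the SD over 3 libraries and points for the libraries, POGK left of control. Type I MAGE genes sum higher and PAGE genes lower in POGK cells, while type II MAGE and SPANX sums overlap.

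PAGE5 had the largest loss of reads of any member. PAGE genes belong to the GAGE-like superfamily, and their proteins are small, acidic and little understood. PAGE5 (ENSG00000158639; hg38 chromosome X, 55220346 to 55224108, plus strand) had 550, 574 and 467 counts in POGK cells against 5641, 5732 and 5504 in control cells. In CPM these were 15.4, 15.9 and 15.8 in POGK cells against 227, 183 and 185 in control cells. Every POGK library lay far below every control library, and the gene was 12.7-fold lower (log2 -3.66, standard error 0.10, edgeR adjusted p 3.56e-07).

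The copies PAGE2 and PAGE2B, whose promoter windows were 86.0% identical, were lower as well, at much lower levels. PAGE2 had 2, 3 and 1 counts in POGK cells against 23, 36 and 18 in control cells (log2 fold change -3.84, edgeR adjusted p 1.17e-04). PAGE2B had 18, 8 and 8 counts in POGK cells against 39, 57 and 46 in control cells (log2 fold change -2.29, edgeR adjusted p 1.89e-04). Their groups were separate, and their counts added together had a log2 fold change of -2.68. Of all tested genes that averaged under 1 CPM, as PAGE2 did, 19.6% were higher and 26.5% lower. PAGE3, which lies next to PAGE5, was not called, at 22, 33 and 31 counts in POGK cells against 18, 14 and 18 in control cells (log2 0.54, edgeR adjusted p 0.141). PAGE1, in the GAGE region of Xp, had 24 counts over the POGK libraries and 14 over the control libraries and was not tested.

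ACTL8, an actin-like protein made in testis, was the autosomal member with the largest rise. It had 127, 141 and 131 counts in POGK cells against 0, 14 and 5 in control cells (log2 fold change 4.15, standard error 0.46, edgeR adjusted p 8.27e-05). Without control replicate 2 the log2 fold change was 5.37. PRAME, the substrate receptor of a CUL2 ubiquitin ligase and a repressor of retinoic acid signaling, had 4, 11 and 2 counts in POGK cells against 22, 23 and 21 in control cells (log2 fold change -2.18, edgeR adjusted p 0.0018). POGK replicate 2 held most of its POGK reads, and without it the log2 fold change was -3.02.

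XAGE2, another GAGE-like gene, had 26.3, 26.7 and 25.6 CPM in POGK cells against 51.1, 44.2 and 42.4 CPM in control cells (log2 fold change -0.81, edgeR adjusted p 7.96e-05). GAGE2A was higher, with 91, 102 and 82 counts in POGK cells against 51, 42 and 34 in control cells (log2 fold change 0.86, edgeR adjusted p 0.0079). GAGE1 had 27, 27 and 19 counts in POGK cells against 24, 27 and 27 in control cells and was not called. GAGE copies are nearly identical, so their split is uncertain, and the 2 added together had a log2 fold change of 0.51 (edgeR adjusted p 0.0306).

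SPANX genes, which encode proteins of the sperm nucleus, split by copy. SPANXD had 78.4, 72.5 and 70.4 CPM in POGK cells against 65.6, 51.9 and 54.1 CPM in control cells (log2 fold change 0.37, edgeR adjusted p 0.0087). SPANXC had 6.21, 5.97 and 6.07 CPM in POGK cells against 9.78, 7.41 and 9.06 CPM in control cells (log2 fold change -0.52, edgeR adjusted p 0.0069). The groups were separate in both, but these genes are close copies and their reads may be split wrongly. SPANXC and SPANXD added together had a log2 fold change of 0.28. SPANXN3, a more distant copy, was lower, with 10, 6 and 6 counts in POGK cells against 24, 22 and 18 in control cells (log2 fold change -1.77, edgeR adjusted p 0.0015). It passed the filter on low counts only through control cells. SPANXB1 overlapped between the groups, at 89.3 ± 1.97 CPM in POGK cells and 94.5 ± 14.3 CPM in control cells (SD, n = 3 each).

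CSAG1 starts 22 bases from MAGEA12 on the opposite strand, so the genes face away from each other. MAGEA12 was higher, while CSAG1 had 32.8, 33.4 and 31.6 CPM in POGK cells against 50.5, 41.6 and 39.3 CPM in control cells (log2 fold change -0.42, edgeR adjusted p 0.0053). No exon is shared between them in GENCODE release 44. CSAG3 was lower too, with a log2 fold change of -0.58 (edgeR adjusted p 0.0092), and CSAG4, a pseudogene, was not called at -0.07. CSAG2 had 4 counts over the POGK libraries and 17 over the control libraries and did not pass the filter. Without the filter it was lower (log2 fold change -2.22, edgeR adjusted p 0.0100), and with DESeq2 it was not called (adjusted p 0.0502). CSAG2 and CSAG3 are near-identical copies, so the split of reads between them is uncertain. Their counts added together had a log2 fold change of -0.62 (edgeR adjusted p 0.0066).

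SSX1, a repressor that is fused to SS18 in synovial sarcoma, had 3.13, 3.51 and 3.20 CPM in POGK cells against 4.83, 3.93 and 5.26 CPM in control cells (log2 fold change -0.51, edgeR adjusted p 0.0171). That call was lost with library size alone as scaling (-0.31, edgeR adjusted p 0.105) and without POGK replicate 1, POGK replicate 3 or control replicate 3, at edgeR adjusted p-values of 0.0693, 0.0640 and 0.0520. CTAG2, a relative of the antigen NY-ESO-1, had 2, 13 and 2 counts in POGK cells against 7, 11 and 15 in control cells. POGK replicate 2 lay within the control range, and the gene was not called (edgeR adjusted p 0.117) but was lower without that library, with a log2 fold change of -2.56. BAGE2, a transcribed pseudogene, was not called at a log2 fold change of 0.15.

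Of the matches with other functions, SSX2IP had 35.4, 38.5 and 37.1 CPM in POGK cells against 12.6, 24.6 and 17.2 CPM in control cells (log2 fold change 1.02, edgeR adjusted p 0.0019). LAGE3 had 14.5, 14.0 and 14.2 CPM in POGK cells against 10.9, 10.1 and 9.16 CPM in control cells (log2 fold change 0.51, edgeR adjusted p 0.0022). Both were higher with no overlap of the groups. Without these genes, 12 members were higher and 12 lower.

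The remaining members that were too low to test were CT45A10, SAGE1 and the pseudogene SSX6P. CT45A10 had 12, 8 and 8 counts in POGK cells against 3, 0 and 2 in control cells. SAGE1 had 8, 12 and 4 counts in POGK cells against 2, 1 and 0 in control cells, and SSX6P had 26 counts over the POGK libraries and 6 over the control libraries. Without the filter these 3 were higher, at edgeR adjusted p-values from 0.0157 to 0.0208, where 29.3% of all genes were higher. With DESeq2, CT45A10 and SAGE1 were called (adjusted p 0.0385 and 0.0349) and SSX6P was not (adjusted p 0.0659), where 27.6% of all genes were higher. CT45 genes are near copies of each other, so the CT45A10 counts are uncertain.

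**Figure D4:**
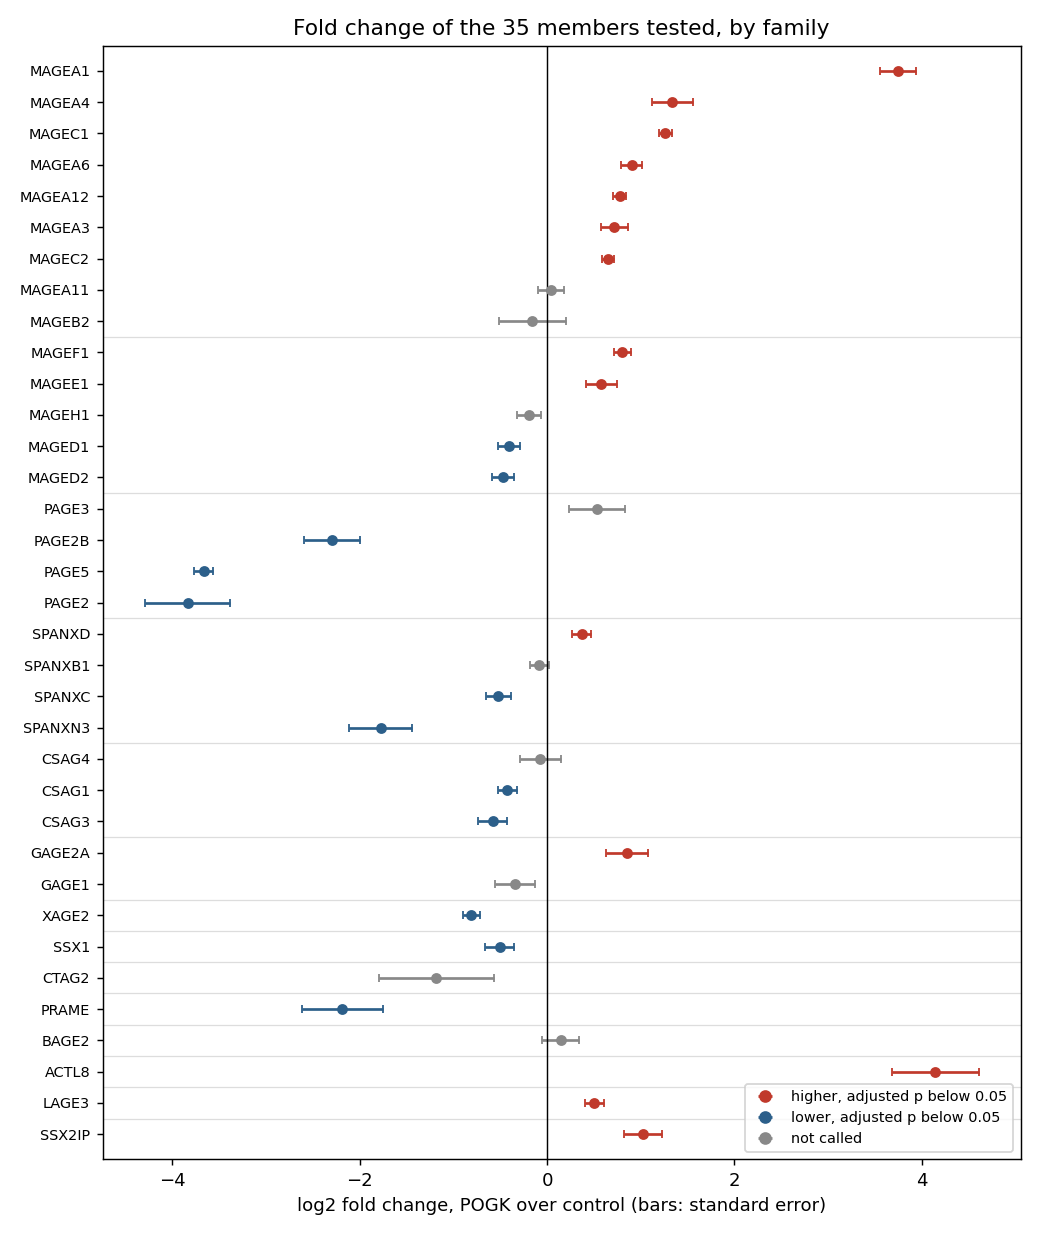
Log2 of POGK over control, with standard errors as bars, for the 35 members tested, grouped by family with thin lines between families, red for higher, blue for lower and gray for not called. The type I MAGE block at the top lies mostly right of 0, and PAGE2, PAGE2B and PAGE5 lie farthest to the left.

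Levels can be ordered only per kilobase of annotated exon. In POGK cells the highest members were SPANXB1 at 192 ± 4.22, MAGEC2 at 156 ± 1.29 and SPANXD at 108 ± 6.04 CPM per kilobase (SD, n = 3 each). In control cells the highest members were PAGE5 at 264 ± 33.0, SPANXB1 at 203 ± 30.7 and MAGEC2 at 99.5 ± 4.40 CPM per kilobase, followed by SPANXD at 83.9 ± 10.7 and XAGE2 at 73.2 ± 7.27. In control cells, PAGE5 and SPANXB1 differed by less than the sum of their SDs, and so did SPANXD and XAGE2. PAGE5 ranked 13 among the 43 members in POGK cells and 1 in control cells, and MAGEA1 ranked 17 in POGK cells and 28 in control cells.

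Chromosome X was also compared without the members. Of 545 tested genes on chromosome X that are no members, 46.6% were higher and 23.3% lower, with a median log2 fold change of 0.25. Of the 30 tested members on chromosome X, 11 were higher and 11 lower, with a median of -0.12. The nearest tested protein-coding genes on either side of the 7 higher type I genes were 8 genes, of which 5 were higher, none lower and 3 not called. Their distances ran from 28.0 to 1713 kilobases, so some are not close neighbors.

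Beside MAGEA1, ZNF185 and ZNF275 had log2 fold changes of 0.27 and 0.18 and were not called (edgeR adjusted p 0.104 and 0.105). MAGEA4 had neighbors that moved about as far as it did, with 1.36 for GABRE, 28.0 kilobases away, and 1.40 for VMA21, 503 kilobases away. GABRQ, a GABA receptor gene, is the nearest tested protein-coding gene before the MAGEA3 cluster that is no member. It had 0.621 ± 0.036 CPM in POGK cells and 0.071 ± 0.009 CPM in control cells (SD, n = 3 each; edgeR adjusted p 1.18e-04). GABRQ passed the filter on low counts only through POGK cells, so its call, counted among the higher neighbors, is not independent of the filter. Around PAGE5 the directions were mixed, at -0.46 for FAM104B on 1 side and 1.83 for USP51 on the other. TRO, which is the MAGED3 gene (chosen after its values were seen) and the neighbor of MAGED2, was lower, with a log2 fold change of -1.41.

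Of 47 genes on a list of other germline and testis genes, 19 were in the table and 13 were tested, of which 3 were higher, 1 lower and 9 not called, with a median log2 fold change of 0.16. Of all genes tested, 32.7% were higher and 33.3% lower, and of those under 1 CPM 19.6% and 26.5%. LUZP4, an X-linked mRNA export factor of germ cells, had 1094, 1134 and 892 counts in POGK cells against 115, 166 and 131 in control cells (log2 fold change 2.68, edgeR adjusted p 1.02e-06). CABYR, a sperm tail protein, had a log2 fold change of 0.49, and TEX19 one of -0.62. CTCFL, a germ cell relative of CTCF that can switch on some of these antigens, was not analysed here. All 8 proliferation genes that also carry a cancer-testis number were higher, with a median of 1.00, among them PBK at 1.09, KIF20B at 1.29 and ATAD2 at 1.30.

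Genes of the DNA methylation machinery were higher in 6 of 13 cases and lower in 2, against 32.7% higher and 33.3% lower among all genes tested, and the median was 0.26 on the log2 scale. DNMT1, which copies methylation after replication, had 231 ± 1.62 CPM in POGK cells and 95.8 ± 32.9 CPM in control cells (SD, n = 3 each; edgeR adjusted p 8.67e-04). UHRF1, its recruiting factor, had a log2 fold change of 1.97, DNMT3B one of 1.07 and MBD3 one of 0.69. Of 12 genes of the KRAB corepressor and H3K9 methylation, 7 were higher and 1 lower, with SUV39H1 at 1.64, SUV39H2 at 1.35 and ATF7IP at -0.66. DNA methylation itself was not measured.

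The ubiquitin ligase partners of MAGE proteins and PRAME were higher in 7 of 13 cases and lower in 2, and their median was 0.32 on the log2 scale. The share called lay near the 66.0% of all genes tested. TRIM28, the partner of MAGEC2, MAGEA3 and MAGEA6, had 363 ± 1.83 CPM in POGK cells and 290.1 ± 15.6 CPM in control cells (SD, n = 3 each; log2 fold change 0.32, edgeR adjusted p 0.0030). PJA1, the partner of MAGED1, had a log2 fold change of 0.61, its relative PJA2 one of -0.79 and USP7, of the MAGEL2 complex, one of 0.59. NSMCE3, the MAGE gene of the SMC5/6 complex, overlapped between the groups and was not called, with a log2 fold change of 0.06.

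Of 14 markers of other cells, 8 were in the table and 7 tested, of which 3 were higher, 3 lower and 1 not called. The shares among all genes tested were 32.7% higher and 33.3% lower. Their summed level was 1094 to 1125 CPM in POGK cells and 859 to 993 CPM in control cells, nearly all of it COL1A1 and KRT18. ACTA2 had a log2 fold change of -1.56, COL3A1 of 1.78 and KRT18 of 0.71, and PTPRC, of blood cells, had 1.66 CPM in POGK cells and 0.53 CPM in control cells. Of the line's markers, VIM had a log2 fold change of -0.83, ZEB1 of -0.33 and CD44 of -0.26. In all, 3 of the 5 tested were lower and 2, CDH2 and ERBB2, were higher, where 66.0% of all genes tested were called in either direction. The part of these shifts in the results for the antigens was not tested.

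In the authors' deposited table, the log2 fold change was 3.76 for MAGEA1, 4.20 for ACTL8 and -3.66 for PAGE5. All 26 members called here had an adjusted p below 0.05 and the same direction in the authors' deposited table. Both rest on the same libraries, so this is no separate test. The share of all genes below 0.05 in the deposited table was not counted here. That table also had an adjusted p below 0.05 for members not tested here, 3 higher (CT45A10, SAGE1 and SSX6P) and 2 lower (CSAG2 and MAGEB18). Of these, CSAG2 and SSX6P were not called with DESeq2 here.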

How the data were processed

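The members and gene lists were chosen with earlier results of these data known. RNA sequencing was done on 6 libraries after depletion of ribosomal RNA. Per the submitters' processing notes, Trimmomatic, STAR, SAMtools, deepTools and featureCounts were used with build hg38; the sources used here do not give the gene annotation, the strand setting or the handling of reads that match several copies. The authors deposited raw read counts per gene, and, for each library, scaled signal values that equal the counts over 1 size factor, judged by the numbers themselves. Per the file headers, the authors' deposited table also gives log2 fold changes and their standard errors, a score from a test, and the p-value before and after adjustment. Only the log2 fold change and adjusted p-value are quoted, and the tool is not stated.

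Here the counts as deposited were tested with edgeR 4.0.16 (R 4.3.3): quasi-likelihood test, robust estimation, TMM scaling, default filter and Benjamini-Hochberg adjustment over 15889 genes, with calls at 0.05. Standard errors come from the F statistic. The lowest total over the 6 libraries in the table was 21 counts; rarer genes were not analysed here. Positions and exon lengths are from GENCODE release 44, in which 18264 of 18398 genes were found. Libraries of a group differed by more than sampling noise, with chi-square per gene at 1.36 to 2.62 for pairs of POGK libraries and at 22.5 to 49.7 for pairs of controls. The fit pools this unequal spread. All tested members are named, with the 3 smallest adjusted p-values per list, CTCFL, DNMT1 and TRIM28; other genes named from lists or as neighbors of members outside type I were chosen after their values were seen. The script was tested on simulated data. Alternatives were DESeq2 1.42.0, limma-voom (limma 3.58.1), other scalings and filters, a replicate block, leaving out each library, and summing near-identical copies. Summing further copies and leaving out SSX2IP and LAGE3 were chosen after seeing the data.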

Additional observations from a re-analysis of the deposited data

How the results depend on the processing

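Of the 26 called members, 23 kept their call and direction under each alternative that gave them a value, and the exceptions were MAGED1, MAGEE1 and SSX1. PAGE2, PRAME and SPANXN3 were not tested under a filter of 1 CPM in 3 libraries, which left 9 members lower, and copies that were summed had no value of their own there. Of the values of single members under an alternative, 491 kept their side of the threshold, 9 lost the call and 3 gained it. The gains were CTAG2 with limma-voom and without POGK replicate 2, and MAGEH1. Among the 491, members called in neither fit could change sign, as MAGEB2 did from -0.16 to 0.10 without control replicate 2. The number of members higher lay between 12 and 17 and the number lower between 9 and 14. The 12 came from leaving out SSX2IP and LAGE3. The 17 and 14 came without a filter, where 29.3% of all genes were higher and 29.9% lower. DESeq2 gave 16 higher and 13 lower, where the shares were 27.6% and 28.2%. Library size alone gave 14 higher and 10 lower, where they were 41.4% and 24.7%. Shares for the other alternatives are not given here. Leaving out 1 library gave 13 to 15 higher and 10 to 13 lower, a type I median of 0.76 to 0.87 and a type II median of -0.33 to -0.08. The number of type I MAGE genes that were lower was 0 and became 1 with DESeq2 and 1 without a filter, through MAGEB18, which then was tested. The type II median of -0.19 became 0.0099 with library size alone. Whether the replicate numbers pair the libraries cannot be decided from 3 libraries per group. Correlations of deviations between same-numbered libraries were 0.128, 0.063 and -0.002. The best match was the same-numbered control library for POGK replicates 1 and 2 but not for replicate 3. The fit with the replicate block gave 14 members higher and 12 lower. Likeness of other genes to MAGEA1 across libraries was not run, since the 6 libraries fall into 2 groups. Low counts limit PAGE2, PRAME, SPANXN3, CTAG2 and MAGEB2, and near-identical copies limit the GAGE, SPANX, PAGE2, MAGEA3, CSAG2 and CSAG3 values.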
